A study of Caenorhabditis elegans with 2 samples.

Results

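The sarcomere and muscle attachment genes were followed in a poly(A) tail length profile of whole Caenorhabditis elegans of the wild-type strain N2 Bristol, taken at mid-L4, the last stage before adulthood. They were the rows of the deposited table whose gene symbol named a myosin, paramyosin, twitchin, tropomyosin, troponin, calponin-related, integrin-linked, dense body or M-line protein or a related muscle gene, 46 of the 13601 genes listed. Synchronized animals fed OP50 bacteria at 25 °C were taken at the 29 h time point, without treatment, and RNA came from the whole organism. Tails were read by mTAIL-seq, in which an adapter is joined to poly(A) ends with the help of a splint oligonucleotide and the tail is then sequenced through. There was 1 group with 2 biological replicates, and the deposited table does not tell the replicates apart. Every value below is therefore pooled over both libraries, carries no replicate error and has no test.

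Nematode body wall muscle is built from thick filaments of myosin and paramyosin and thin filaments of actin, tropomyosin and troponin. Thin filaments are anchored in dense bodies and thick filaments in M-lines, and both structures are tied through integrins to the basement membrane and the overlying epidermis. The pharynx, the feeding organ, has its own myosins and troponins. A poly(A) tail is added to an mRNA in the nucleus and is generally shortened with time in the cytoplasm, where it binds poly(A)-binding protein.

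The table held 17376490 tail calls (tags) of 5 to 231 nt. Of the 46 genes, 45 had at least 100 tags, and these held between 126 and 92518 tags each and 2.27% of all tags. The exception was lim-8 (F28F5.3), a LIM-domain gene, with 69 tags and a median of 136 nt (95% interval 103 to 154 nt). Intervals of medians came from the ranks of a gene's own tags and those of shares are Wilson intervals at 95%. Both cover counting error only, and would be too narrow if PCR copies were counted. Because whole animals were used, fewer cells with a transcript and less transcript per cell cannot be told apart in a tag number. Tags mark RNA 3′ ends and were not divided by transcript length.

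Muscle genes had tails close to the typical length, and how many counted as shorter depended on the tag minimum. The 45 gene medians had a median of 77 nt, against 80 nt over the 8803 genes with at least 100 tags. Gene medians ranged from 57 nt in unc-27 (ZK721.2), a troponin I gene, to 113 nt in unc-22 (ZK617.1), the gene of the giant kinase twitchin. A gene was counted as below or above when its whole interval lay on that side of 80 nt. Of the 45 genes 25 (55.6%) were below, against 36.7% of all genes analysed, and 12 (26.7%) were above, against 35.0% of all genes analysed. The remaining 8 had intervals that included 80 nt. The 45 genes had a median of 2564 tags, against 405 over all genes analysed. More tags give a narrower interval, so muscle genes were more easily counted on either side. With a minimum of 400 tags in place of 100, both medians were 76 nt. Then 16 of 43 muscle genes were below, against 39.0% of all genes, and 16 were above, against 40.7% of all genes, so the excess of muscle genes below the median was no longer seen. Ordered by length, the intervals of 41 of the 44 neighbouring pairs overlapped. Neighbours in such an order are close by construction, so the overlap limits the exact ranks only and is not a test.

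**Figure D1:**
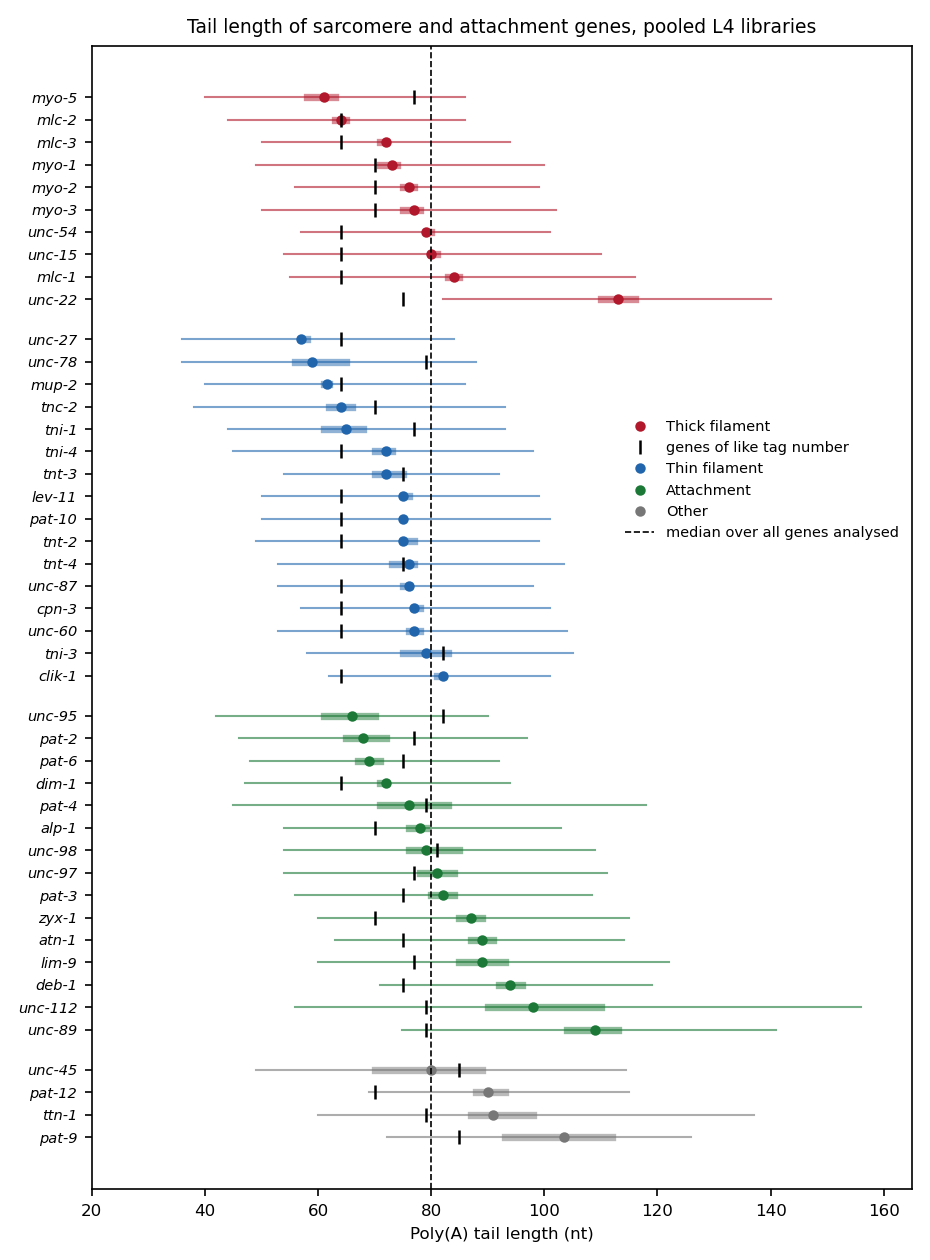
Median tail length in nt of the 45 analysed genes by class. Points are gene medians, thick bars their 95% intervals, thin lines the span between the quartiles of the gene's tails, vertical ticks the median of all genes with like tag numbers and the dashed line the median over all genes, 80 nt. Thin filament genes lay between 57 and 82 nt, whereas unc-22 and unc-89 lay at 113 and 109 nt.

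Thick filament genes had a median of 76.5 nt over 10 genes. The 5 myosin heavy chain genes lay between 61 and 79 nt. unc-54 (F11C3.3), which encodes the main body wall heavy chain, had 38818 tags and a median of 79 nt (79 to 80 nt), and the quartiles of its tails ran from 57 to 101 nt. myo-3 (K12F2.1), the other body wall heavy chain, placed at the centre of the filament, had a median of 77 nt (75 to 78 nt). The pharyngeal heavy chain genes myo-2 (T18D3.4) and myo-1 (R06C7.10) had medians of 76 nt (75 to 77 nt) and 73 nt (71 to 74 nt). These 4 genes thus fell within 6 nt of each other. The interval of unc-54 met that of neither pharyngeal gene nor that of myo-3, and the intervals of myo-3 and myo-2 overlapped. myo-5 (F58G4.1), a further heavy chain gene, stood apart at 61 nt (58 to 63 nt, 995 tags), with quartiles at 40 and 86 nt. Of its tails 14.1% were under 30 nt and 15.4% over 100 nt. unc-15 (F07A5.7), the paramyosin gene, whose product forms the filament core, had 22301 tags and a median of 80 nt (80 to 81 nt).

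The myosin light chain genes differed more among themselves than the heavy chain genes apart from myo-5 did. mlc-1 (C36E6.3) and mlc-2 (C36E6.5) encode nearly identical regulatory light chains and are adjacent protein-coding genes in the RefSeq table, and mlc-3 (F09F7.2) encodes the essential light chain. mlc-1 had 16394 tags and a median of 84 nt (83 to 85 nt). mlc-2 had 7012 tags and a median of 64 nt (63 to 65 nt). The difference, mlc-1 minus mlc-2, was 20 nt, and taken from the outer ends of both intervals it was 18 to 22 nt. Tails over 100 nt made up 36.9% (36.1 to 37.6%) of mlc-1 tags and 13.6% (12.8 to 14.4%) of mlc-2 tags. mlc-3, with 42057 tags the most abundant thick filament gene, lay between the pair at 72 nt (71 to 72 nt), with quartiles at 50 and 94 nt. Of its tails 5.65% were under 30 nt and 20.1% over 100 nt. The coding sequences of mlc-1 and mlc-2 are similar enough that the division of tags between them is uncertain, and sharing of tags between them was not tested.

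unc-22 was the longest-tailed of the 45 genes. Its 1843 tags had a median of 113 nt (110 to 116 nt) and quartiles at 82 and 140 nt. Tails over 100 nt made up 60.6% (58.3 to 62.8%) and tails under 30 nt 2.50% (1.88 to 3.31%). The median of unc-22 was 34 nt above that of unc-54, or 30 to 37 nt from the ends of the intervals. The lower quartile of unc-22 lay above the median of unc-54.

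**Figure D2:**
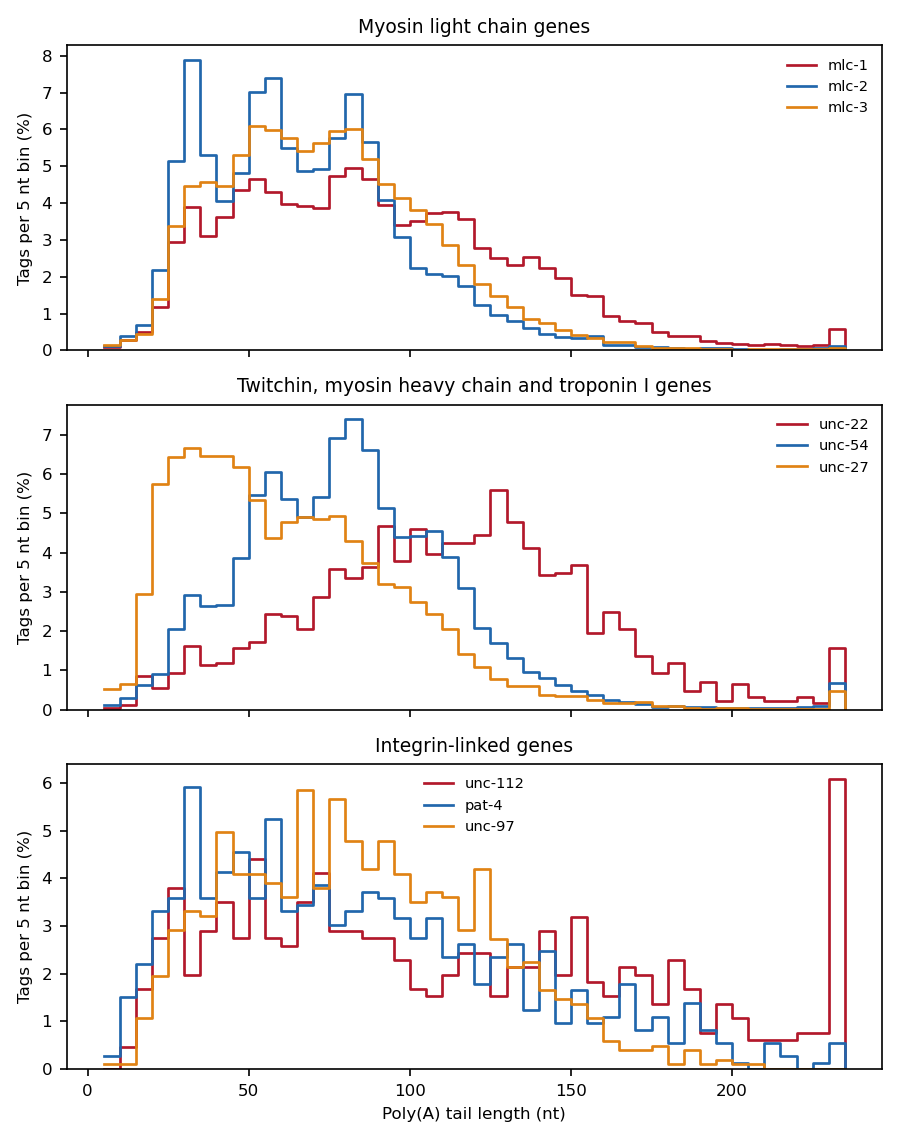
Share of a gene's tags in each 5 nt bin of tail length, for the light chain genes, for unc-22 with unc-54 and unc-27, and for 3 integrin-linked genes. mlc-1 had 36.9% of tails over 100 nt and mlc-2 13.6%, and unc-112 had 6.09% of tails at 231 nt, in the last bin.

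The thin filament was the class most often under the typical length, since 14 of its 16 genes were below 80 nt (87.5%, against 36.7% of all genes), and its median was 75 nt. Several of these 14 lay at 75 to 77 nt, close to the 76 nt median of genes with at least 400 tags. All 16 thin filament genes passed that minimum. The intervals of lev-11, tnt-2, tnt-4, unc-87, cpn-3 and unc-60 ended at 76 to 78 nt, so these genes were not wholly below 76 nt. The count of 14 therefore holds for the cut of 80 nt only. Thin filament genes ran from 57 to 82 nt, a range like that of the thick filament genes without unc-22, 61 to 84 nt. clik-1 (T25F10.6), a calponin-like gene, was above, at 82 nt (81 to 82 nt, 13955 tags), with quartiles at 62 and 101 nt. Of its tails 3.53% were under 30 nt and 25.7% over 100 nt. The remaining gene, tni-3 (T20B3.2), a troponin I gene with 405 tags, had an interval of 75 to 83 nt. lev-11 (Y105E8B.1), the tropomyosin gene, had 22251 tags and a median of 75 nt (75 to 76 nt). Several isoforms of lev-11 and of other members share a symbol and were not separated in the table.

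Of the 10 troponin genes, whose products switch the thin filament on with calcium, 9 were below 80 nt, against 36.7% of all genes. Against genes with like tag numbers, 4 were longer and 6 shorter, near the split over all genes of 48.7% and 48.9%. pat-10 (F54C1.7), the body wall troponin C gene that binds calcium, had 92518 tags, the most of any member, and a median of 75 nt (75 to 75 nt). Its quartiles were 50 and 101 nt, and 5.03% of its tails were under 30 nt and 25.6% over 100 nt. unc-27, a body wall troponin I gene, had the shortest tails of all 45 members at 57 nt (57 to 58 nt, 13975 tags), with quartiles at 36 and 84 nt and at percentile 8.30 of all genes. Tails under 30 nt made up 16.3% of unc-27 tags (15.7 to 16.9%), and tails over 100 nt 13.9% (13.3 to 14.5%). tni-1 (F42E11.4), also a troponin I gene, was at 65 nt (61 to 68 nt), and the pharyngeal troponin I gene tni-4 (W03F8.1) at 72 nt (70 to 73 nt). The troponin T genes, whose products link troponin to tropomyosin, were mup-2 (T22E5.5) at 61.5 nt (61 to 62 nt), tnt-3 (C14F5.3) at 72 nt (70 to 75 nt), tnt-2 (F53A9.10) at 75 nt (75 to 77 nt) and tnt-4 (T08B1.2) at 76 nt (73 to 77 nt). Genes of the same troponin subunit therefore spanned 22 nt for troponin I, from unc-27 to tni-3, and 14.5 nt for troponin T, from mup-2 to tnt-4.

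Pharyngeal and body wall isoforms had similar medians as groups, with ranges that overlapped. The 5 pharyngeal genes (myo-1, myo-2, tni-4, tnt-4 and tnc-2) had a median of 73 nt and ranged from 64 to 76 nt. The 8 body wall genes (unc-54, myo-3, unc-27, tni-1, tni-3, mup-2, tnt-3 and pat-10) had a median of 73.5 nt and ranged from 57 to 79 nt. Against genes with like tag numbers, 4 of 5 pharyngeal genes were longer, with a median difference of 3 nt. Of the body wall genes 3 of 8 were longer, with a median difference of -2.75 nt. Over all genes 48.7% were longer, and both groups hold few genes. Within troponin the direction differed by the pair of genes compared. Pharyngeal tni-4 was 15 nt longer than body wall unc-27 (12 to 16 nt), but at 72 nt (70 to 73 nt) it was shorter than body wall tni-3 at 79 nt (75 to 83 nt). Pharyngeal tnt-4 was 14.5 nt longer than body wall mup-2 (11 to 16 nt). For troponin C, pharyngeal tnc-2 (ZK673.7) minus body wall pat-10 was -11 nt (-13 to -9 nt), with tnc-2 at 64 nt (62 to 66 nt, 3288 tags). Some of these genes are also active in other muscles, and the split follows their best known site.

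Genes of actin-binding proteins in the thin filament class lay mostly at its upper end. unc-87 (F08B6.4), a calponin-like stabiliser of filaments, was at 76 nt (75 to 76 nt), cpn-3 (F28H1.2), a calponin gene, at 77 nt (77 to 78 nt) and clik-1 at 82 nt. unc-60 (C38C3.5), the ADF/cofilin gene, had 16505 tags at 77 nt (76 to 78 nt). That locus makes a muscle and a non-muscle protein with separate 3′ ends, which the table gives as 1 gene. unc-78 (C04F6.4), whose product AIP1 acts with ADF/cofilin to take filaments apart, was at 59 nt (56 to 65 nt), with 16.7% of its 790 tails under 30 nt (14.3 to 19.5%). The further calponin-like genes clik-2 (C53C9.2) and clik-3 (K03E5.2) carry a protein identifier in place of a symbol in the table and are not among the 46. They had medians of 68 nt (66 to 70 nt) and 75 nt (73 to 77 nt).

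Attachment genes had a median of 81 nt over 15 genes and ranged from 66 to 109 nt. Of these 6 were above 80 nt, where 35.0% of all genes were, 5 were below, where 36.7% of all genes were, and 4 had intervals that included it. Their tag numbers were lower than those of filament genes, with a median of 1094 tags, against 6431 tags over the 26 thick and thin filament genes.

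The integrin genes differed from each other. pat-3 (ZK1058.2), the beta integrin gene, had a median of 82 nt (80 to 84 nt), and pat-2 (F54F2.1), the alpha integrin gene, of 68 nt (65 to 72 nt), a difference of 14 nt (8 to 19 nt). The genes of proteins bound at the integrin tail also spread. pat-6 (T21D12.4), which encodes parvin, was at 69 nt (67 to 71 nt), pat-4 (C29F9.7), integrin-linked kinase, at 76 nt (71 to 83 nt), and unc-97 (F14D12.2), PINCH, at 81 nt (78 to 84 nt). These 3 proteins act as 1 complex with unc-112 (C47E8.7), kindlin, whose gene was at 98 nt (90 to 110 nt). The 4 partner genes therefore ran over 29 nt in median tail length.

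The tails of unc-112 were also unusually dispersed, a feature picked out after its values were seen. Its 657 tags had an SD of 62.3 nt, at percentile 99.5 of all genes analysed, and quartiles at 56 and 156 nt. Tails at 231 nt, the longest length in the table, made up 6.09% of its tags (40 tags), against 0.289% of the pooled tags of all genes analysed. The median share per gene over the 45 analysed members was 0.361%. A high share at 231 nt was not peculiar to unc-112, since lim-8 had 7.25% on 69 tags. Outside the members, sgca-1 (H22K11.4), alpha-sarcoglycan, had 18.5% and an SD of 67.9 nt. The GABA receptor gene unc-49 (T21C12.1) had 5.31%. If calls stop at 231 nt, longer tails would be counted there. Short tails were present in unc-112 too, with 8.68% under 30 nt (6.76 to 11.1%). The SD of pat-4 was 49.3 nt, and that of unc-97 38.1 nt.

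Dense body genes had both short and long tails. deb-1 (ZC477.9), the vinculin gene, was at 94 nt (92 to 96 nt), atn-1 (W04D2.1), alpha-actinin, at 89 nt (87 to 91 nt), and zyx-1 (F42G4.3), zyxin, at 87 nt (85 to 89 nt), and all 3 were above 80 nt. alp-1 (T11B7.4), a PDZ and LIM-domain gene, was below at 78 nt (76 to 79 nt). dim-1 (C18A11.7), an immunoglobulin-domain gene and with 11673 tags the most abundant attachment gene, was below at 72 nt (71 to 72 nt), with quartiles at 47 and 94 nt. Of its tails 8.95% were under 30 nt and 19.4% over 100 nt. unc-95 (Y105E8A.6), a LIM-domain gene, was the shortest of the class at 66 nt (61 to 70 nt), with quartiles at 42 and 90 nt. Of its 538 tails 11.2% were under 30 nt (8.76 to 14.1%), and 102 tails were over 100 nt.

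M-line genes included the longest-tailed attachment gene among those with at least 100 tags. lim-8, also an M-line gene, had 69 tags and a median of 136 nt, and its interval (103 to 154 nt) took in that of unc-89. unc-89 (C09D1.1), which encodes the giant protein obscurin, had 824 tags, a median of 109 nt (104 to 113 nt) and quartiles at 74.75 and 141 nt. Of its tails 55.7% were over 100 nt (52.3 to 59.1%) and 3.40% under 30 nt. lim-9 (F25H5.1), a LIM-domain gene, was at 89 nt (85 to 93 nt), and unc-98 (F08C6.7), a zinc finger gene, at 79 nt (76 to 85 nt). The titin-like giant ttn-1 (W06H8.8), placed in none of the 3 classes, was at 91 nt (87 to 98 nt) with an SD of 54.1 nt. All 3 giant genes among the members, unc-22, unc-89 and ttn-1, were above 80 nt, where 35.0% of all genes were.

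Outside the classes were also unc-45, pat-12 and pat-9. unc-45 (F30H5.1), a myosin chaperone gene, was at 80 nt (70 to 89 nt) on 223 tags. pat-12 (T17H7.4), a gene of the epidermal attachments opposite muscle, was at 90 nt (88 to 93 nt), and pat-9 (T27B1.2), a zinc finger transcription factor gene with 126 tags, at 103.5 nt, with an interval that began at 93 nt and was 19 nt wide.

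Set against each other, the classes overlapped widely. Attachment genes minus thin filament genes was 6 nt (81 and 75 nt), attachment minus thick filament genes 4.5 nt (81 and 76.5 nt), and thick minus thin filament genes 1.5 nt (76.5 and 75 nt). The ranges of gene medians were 66 to 109 nt for attachment, 61 to 113 nt for thick and 57 to 82 nt for thin filament genes. With troponin and tropomyosin genes alone as the thin filament, attachment minus thin was 9 nt and thick minus thin 4.5 nt, since those 11 genes had a median of 72 nt. With all tags of a class pooled, attachment minus thick was 1 nt.

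Tag number moved with tail length and with class. Across all 8803 genes Spearman's rho of median tail with tags was -0.30, and across the 45 muscle genes it was -0.22. Both describe genes of 1 pooled profile, and tags and tails came from the same calls. Within the classes rho was 0.12 for 10 thick, 0.20 for 16 thin and 0.03 for 15 attachment genes. Each gene was therefore also set beside the median of all genes with like tag numbers, taken from 20 equal groups of genes ordered by tags. On that scale 30 of 45 muscle genes were longer, against 48.7% of all genes, 14 were shorter, against 48.9% of all genes, and 1 was equal, and the median difference was 8 nt. The direction is thus opposite to that of the comparison with 80 nt.

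Several of the most abundant members were longer than genes of like depth. The group of genes with the most tags, 5099 to 322583, had a median of 64 nt, and unc-54 lay 15 nt, unc-15 16 nt, mlc-1 20 nt, clik-1 18 nt and pat-10 11 nt above it. mlc-2 was equal to it, and mup-2 and unc-27 lay 2.5 and 7 nt under it. Of the thick filament genes 8 of 10 were longer than genes of like depth, of the thin 9 of 16 and of the attachment genes 10 of 15, against 48.7% of all genes. The thin filament count was near that share. Of the actin-binding genes 4 of 5 were longer. unc-22 was 38 nt longer. Among attachment genes unc-89 was 30 nt longer and deb-1 and unc-112 19 nt longer, and unc-95 was 16 nt shorter. In these units attachment minus thick was 0.5 nt, attachment minus thin 3.5 nt and thick minus thin 3 nt. Whether tag number has a part in the class differences was not tested.

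**Figure D3:**
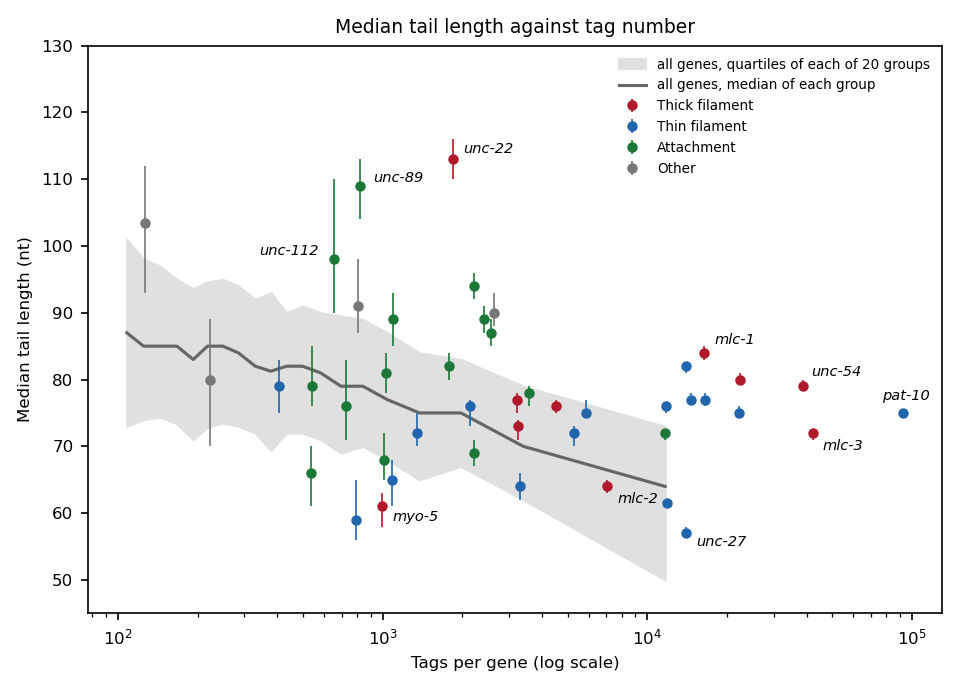
Median tail length in nt against tags per gene on a log scale. Coloured points are the 45 muscle genes with 95% intervals, the grey line is the median and the band the span between quartiles of all genes in each of 20 groups by tag number. Of the 45 genes 30 had medians above that of their group, among them unc-54, mlc-1 and pat-10 at the right.

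Other genes of muscle were read from lists on structures outside the 46. Whole animals were used, so tags of these genes could also come from tissues other than muscle. This holds for the excitation and calcium handling list too. Of 14 other sarcomere and cytoskeletal genes, 9 were above 80 nt, against 35.0% of all genes, and 2 below, against 36.7%, with a median of 92 nt. ketn-1 (F54E2.3), the gene of the giant thin filament protein kettin, was the longest at 131 nt (129 to 134 nt). fln-1 (Y66H1B.2), filamin, had the most tags, 3435, at 99 nt, and tln-1 (Y71G12B.11), talin, which links integrin to actin, was at 96 nt (93 to 98 nt). unc-96 (F13C5.6), an M-line gene, was the shortest at 68 nt (63 to 73 nt).

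Genes of excitation and calcium handling had long tails, with 12 of 14 analysed genes above 80 nt (35.0% of all genes were) and a median of 100.25 nt. The exceptions were the calmodulin gene cmd-1 (T21H3.3) at 67 nt and the calsequestrin gene csq-1 (F40E10.3) at 71 nt. sca-1 (K11D9.2), the sarcoplasmic calcium pump and with 8825 tags the most abundant, was at 84 nt (83 to 86 nt), and the GABA receptor gene unc-49 (T21C12.1) was the longest at 128 nt (117 to 135 nt). A further 7 genes of that list had under 100 tags. Its genes had few tags, with a median of 353, and the median difference of the list from genes of like depth was 18.5 nt. In the dystrophin complex list 5 of 8 analysed genes were above, against 35.0% of all genes, and 1 below, against 36.7%, with a median of 94.5 nt. It ranged from sgn-1 (F07H5.2), a sarcoglycan gene, at 74 nt to sgca-1 (H22K11.4), alpha-sarcoglycan, at 148.5 nt, and ctn-1 (Y23H5A.5) had the most tags, 327, at 82 nt.

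Genes of the epidermal side of the attachment had a median of 80 nt over 7 genes, with 3 above and 3 below, near the shares over all genes of 35.0% and 36.7%. let-805 (H19M22.2), myotactin, was at 94 nt (93 to 96 nt) and vab-10 (ZK1151.1), a spectraplakin, at 92 nt (90 to 94 nt). The intermediate filament genes mua-6 (W10G6.3), with 6665 tags, and ifb-1 (F10C1.2) were at 72 nt (72 to 73 nt) and 67 nt (66 to 69 nt). Genes of the actin list, which was not limited to muscle actins, were shorter than most thin filament genes apart from act-4 (M03F4.2). act-4 was at 87 nt (86 to 87 nt), act-3 (T04C12.4), with 33367 tags the most abundant, at 58 nt, act-2 and act-5 at 66 nt, and act-1 (T04C12.6) at 52 nt (51 to 52 nt). Most actin genes are nearly identical in sequence, so their separate values are uncertain.

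**Figure D4:**
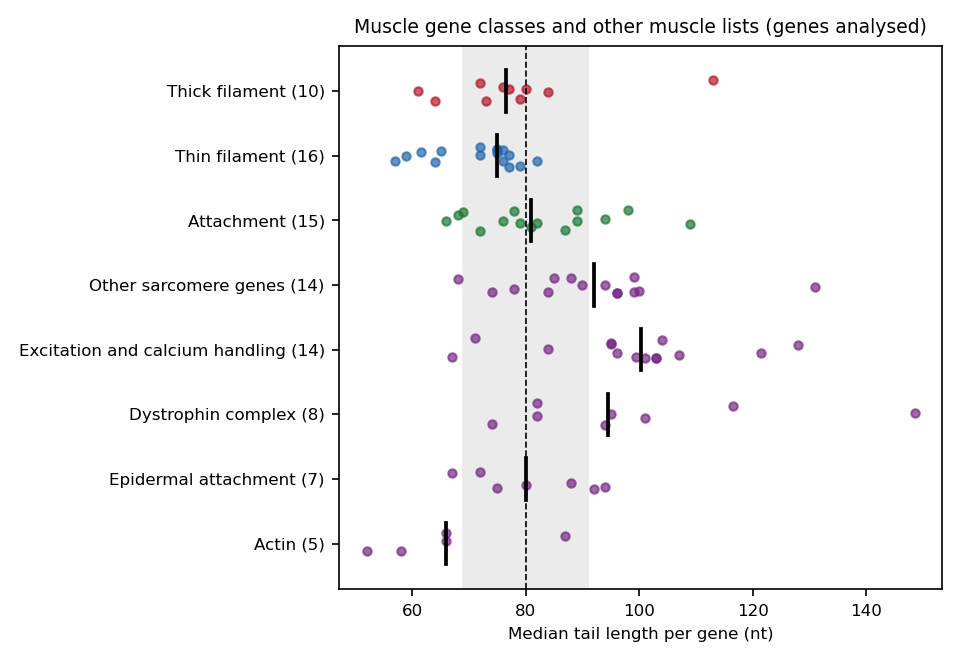
Median tail length in nt per gene, with 1 point a gene, for the 3 classes and the other muscle lists. Black bars are list medians, the dashed line is the median over all genes, 80 nt, and the grey band the span between the quartiles of all gene medians, 69 to 91 nt. Excitation and calcium handling genes had a median of 100.25 nt and thin filament genes of 75 nt.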

How the data were processed

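Per the labels' protocols, the authors ran tailseeker2 on the fluorescence signals of a MiSeq run to obtain tail lengths. STAR and bedtools are named in the submitters' processing notes, and the genome build was not given in the sources used here. Deposited counts are tail calls per gene, pooled over both replicates and not normalized, with the list of lengths for each gene. Recomputed counts, means, medians and SDs differed from the deposited ones in 0 of 13601 genes. Members and lists were chosen with earlier results of these data known. Classes were set by known protein function. The 8803 genes with at least 100 tags were analysed, with 95% rank intervals of medians (SciPy 1.17.1, numpy 2.4.6), checked on simulated data. Named were all members and, in each further list, the most abundant, shortest and longest gene, with a few genes added after their values were seen (talin, calsequestrin, vab-10, the other actin genes). The pairs of related genes set beside each other, and the spread of unc-112, were also chosen after values were seen. Names of 2 calponin-like genes and gene adjacency came from the RefSeq table of WBcel235. Depth per replicate is unknown. Alternatives changed the measure of tail length, the tag minimum, the tails kept, and the classes.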

Additional observations from a re-analysis of the deposited data

How the results depend on the processing

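The differences between classes kept their sign under all 13 alternatives tried for each. Thick minus thin ran from 1 to 4.5 nt, attachment minus thin from 3.5 to 9 nt and attachment minus thick from 0.5 to 5.03 nt. Some alternatives could not change a difference. The tag minima removed no thick or thin filament gene, so thick minus thin stayed at 1.5 nt under them. Leaving out mlc-1 and mlc-2 took genes from opposite sides of the thick filament median of 76.5 nt. That median could not move, and thick minus thin and attachment minus thick stayed at 1.5 and 4.5 nt. The median over members was 80.8 nt with mean tails (84.2 nt over all genes) and 72.1 nt with means of log2(tail + 1) (73.9 nt over all genes), a change of scale in both sets. With at least 400 tags 16 of 43 members were below the median over genes, which was then 76 nt, against 39.0% of all genes, so members were no more often below than genes in general. At 80 nt 25 were below. Members above the median over genes, which changed with the setting, numbered 11 to 16. With tails of at least 20 nt 11 were above 81 nt, against 35.2% of all genes. With at least 400 tags 16 of 43 were above 76 nt, against 40.7% of all genes. Members longer than genes of like tag number were 30 to 32. In the main setting they were 30 of 45, against 48.7% of all genes. Subtracting like tag numbers, and leaving out mlc-1 and mlc-2, were chosen after seeing the data. The relation of tails to protein length was not run, as no protein lengths were used here. No paired analysis was possible because the table pools the replicates, and none could be left out. The intervals of lim-8, unc-112, pat-9 and unc-45 were the widest among members.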
